A study of Mus musculus with 26 samples.

Results

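Sorted neuron nuclei were compared with sorted oligodendrocyte nuclei from mouse whole brain, to ask which nuclear RNAs differ between the cell type that signals and the cell type that myelinates. The comparison rests on 8 of the 26 libraries of the series, 4 of each type, chosen by their sample labels and not by any measured value. Neuron nuclei came from Tg(Snap25-EGfp/Rpl10a)JD362Htz/J mice and oligodendrocyte nuclei from Tg(Cnp-EGfp/Rpl10a)JD368Htz/J mice, both of them B6.FVB lines, so both carry a transgene for enhanced green fluorescent protein (GFP) fused to the ribosomal protein Rpl10a. It is driven by Snap25, a gene of the synaptic release machinery that most neurons use, or by Cnp, a myelin enzyme gene, so each group pools all brain regions and all subtypes that use its driver. Each library came from 1 mouse aged 6 to 12 weeks, and no other treatment or allele is given in the labels. Neuron replicates 2 and 4 and oligodendrocyte replicates 10 and 12 were male, and neuron replicates 26 and 28 and oligodendrocyte replicates 34 and 36 were female. The male libraries have the lower numbers in both groups, so sex and any preparation block behind the numbers cannot be told apart. Nuclei taken from the same 2 lines before sorting (presort nuclei, 4 libraries per line, labelled as mixed cells) gave the background between the lines.

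Neurons fire action potentials through voltage-gated sodium, calcium and potassium channels and pass signals at synapses, where vesicles release transmitter onto receptors of the next cell. Oligodendrocytes wrap axons in myelin, a stack of lipid-rich membrane held together by a small set of abundant proteins, and feed and insulate the axon. Nuclear RNA holds new, partly unspliced transcripts and RNAs kept in the nucleus, such as long noncoding RNAs (lncRNAs), and so reads closer to transcription than to the protein pool.

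The 4 neuron libraries held 2394993 to 2654141 counts and 15968 to 16467 genes with at least 1 count. Oligodendrocyte replicates 10, 12 and 34 held 2932766, 2097653 and 2684450 counts and 16223 to 16575 genes. Replicate 36 stood apart, with 1602594 counts on only 7674 genes, and many genes at moderate levels in the other 3 libraries of its group were at 0 in it. Results are therefore given from all 8 libraries, with counts of called genes also from the 7 libraries without replicate 36, and the fold change of a named gene from both where it moved by over 1.5-fold. Levels are CPM (counts scaled to the same total in every library), listed in the order neuron replicates 2, 4, 26 and 28 and oligodendrocyte replicates 10, 12, 34 and 36. Fold changes are log2 ratios of neuron over oligodendrocyte, ± their standard error (SE), from edgeR's quasi-likelihood test with libraries scaled by TMM (trimmed mean of M-values), and a gene passed when its Benjamini-Hochberg adjusted p was under 0.05. The labels count each mouse as a sample, so p-values measure the spread between mice together with that of sorting and library preparation. CPM compares a gene between libraries but not 1 gene with another, since it is not divided by length. It leaves out the TMM factors that the fold changes use, 0.541 in replicate 36 and 1.12 to 1.26 in the neuron libraries. Overlap of groups is therefore stated for CPM and can differ on the TMM scale.

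Of 11887 genes tested, 847 (7.13%) were higher and 1055 (8.88%) lower in neuron nuclei, 16% in all. Without oligodendrocyte replicate 36, 12646 genes were tested, 2246 (17.8%) were higher and 2324 (18.4%) lower, 36.1% in all. List counts below are to be read beside these shares, 7.13% and 8.88% with 8 libraries and 17.8% and 18.4% with 7. Among the 11887 genes tested both ways, 1882 passed in both fits, 20 passed with 8 libraries alone and 2342 with 7 alone, and 0 changed direction. Every neuron library lay above every oligodendrocyte library in CPM for 3117 genes (26.2%) and below for 940 (7.91%), and for 3439 (28.9%) and 1811 (15.2%) of the same genes without replicate 36. With replicate 36 kept, leaving out any 1 of neuron replicates 2, 4, 26 and 28 or oligodendrocyte replicates 10 and 12 gave 466 to 552 higher genes and 709 to 963 lower ones. Leaving out oligodendrocyte replicate 34 instead gave 758 higher and 1056 lower. The typical spread between replicates, edgeR's biological coefficient of variation, was 0.645 with replicate 36 and 0.358 without it. In simulated data the 8-library fit recovered 57% of genes changed 8-fold and 0% of those changed 2-fold, so mainly large changes could pass. Those that passed had a median log2 fold change of 3.05 among the higher genes and -3.29 among the lower ones. The smallest in size were 1.25 and 1.14. Over all tested genes the median was 0.11 (0.05 with 7 libraries). With libraries scaled by their totals alone it was 0.53 (0.32 with 7), and 921 genes were higher and 702 lower, so each change below is relative to the TMM baseline. The split of calls moved with the scaling and the tool. Higher genes made up 44.5% of the calls by edgeR with TMM, 56.7% with library totals and 62.8% by DESeq2.

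**Figure D1:**
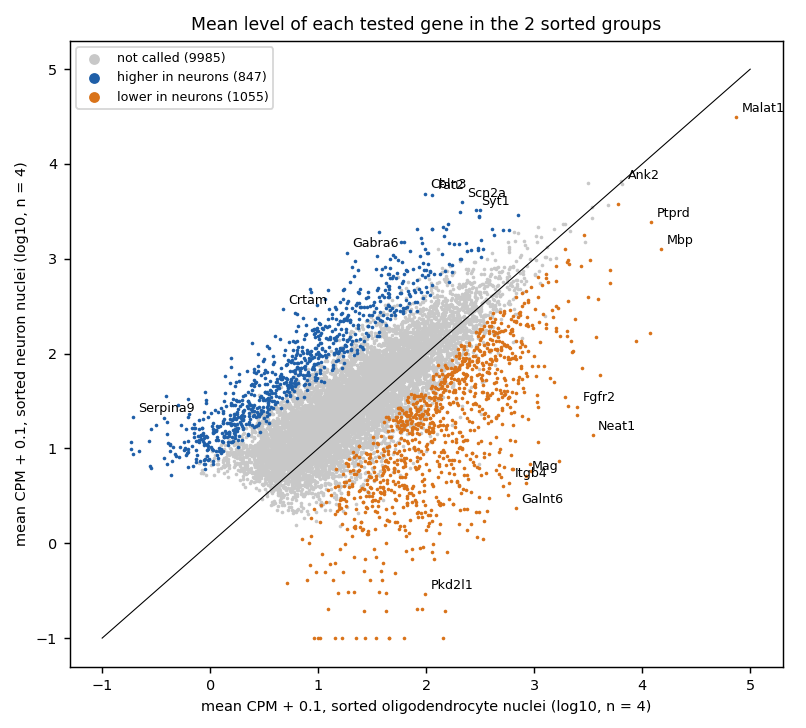
Mean CPM of each of the 11887 tested genes in sorted oligodendrocyte nuclei (x) and sorted neuron nuclei (y), both as log10 of CPM + 0.1, n = 4 libraries each. Blue points are the 847 genes called higher and orange points the 1055 called lower in neurons, grey points the rest, the line marks equal CPM, and the lower calls reach down to genes at 0 in all 4 neuron libraries.

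The genes that mark the 2 lines followed their labels, but as drivers and parts of the transgenes they are not an independent check of them. Snap25 stood at 652, 981, 989 and 1330.5 CPM in neuron nuclei and 165, 107, 456 and 92.3 CPM in oligodendrocyte nuclei, and the groups did not overlap. Its log2 fold change was 1.83 ± 0.48 (edgeR adjusted p = 0.0246). Cnp was at 50.9, 74.3, 40.7 and 34.7 CPM in neurons against 2144, 1856, 1482 and 642 CPM in oligodendrocytes (-5.37 ± 0.44, edgeR adjusted p = 3.38e-05), although its exons overlap Dnajc7 on the opposite strand and the sources used here do not state whether counting used strand. The transcript counted as GFP was found in both lines, at 519, 579, 411 and 354 CPM in neurons and 52.9, 37.7, 50.7 and 0 CPM in oligodendrocytes (3.38 ± 0.88, edgeR adjusted p = 0.0233). It was detected in every neuron library and in all oligodendrocyte libraries except replicate 36, where 0 counts allow up to 1.87 CPM (3 counts of the library's total, counting error only). Rpl10a, whose reads cannot be split between the native gene and the transgene, showed the same layout, 196, 232, 193 and 159 CPM against 38.2, 36.2, 38.7 and 0 CPM. It passed only without replicate 36 (2.44 ± 0.84, edgeR adjusted p = 0.0725, against 2.09 and 8.04e-05 with 7 libraries). In presort nuclei, means in the neuron and oligodendrocyte lines were 118 and 251 CPM for Cnp (-1.13 ± 0.25). They were 221 and 72.9 CPM for GFP (1.57 ± 0.30) and 134 and 60.6 CPM for Rpl10a (1.10 ± 0.31). Snap25 was at 689 and 632 CPM (0.08 ± 0.28). None of these passed before sorting (edgeR adjusted p = 0.486, 0.259, 0.861 and 0.992). How much of the sorted difference lies between the lines was not tested. Fewer nuclei of a type and less RNA per nucleus cannot be told apart in these pooled samples.

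Genes of myelin structure had the largest share of lower calls among the 38 gene lists. Of 22 tested, 21 were lower in neurons and 0 higher, with a median log2 fold change of -6.28 (with 7 libraries 0 higher and 24 lower of 25, median -6.28), against 8.88% of all genes lower. Their summed level was 1597 to 1991 CPM in neuron libraries and 33210 to 43310 CPM in oligodendrocyte libraries. The neuron median was 4.15% of the oligodendrocyte median without replicate 36. Mag, an adhesion protein of the innermost myelin layer, was at 7.16, 7.10, 3.32 and 2.67 CPM in neurons and 1013, 952, 812 and 593 CPM in oligodendrocytes. Each oligodendrocyte library, replicate 36 included, exceeded every neuron library by more than an order of magnitude (-7.87 ± 0.54, edgeR adjusted p = 2.61e-05). Mog, on the myelin surface, reached -6.73, Gjc3, a connexin of oligodendrocyte gap junctions, -7.13, and Tspan2, a tetraspanin, -5.63. Mbp, which compacts the cytoplasmic face of myelin, stood at 1163, 1426, 1051 and 1406 CPM in neurons and 17877, 20661, 8842 and 12288 CPM in oligodendrocytes (-4.11 ± 0.38), and the groups did not overlap. Omg, a myelin glycoprotein that neurons also make, was the member that did not pass (-1.70 ± 0.58, edgeR adjusted p = 0.0689). Its groups overlapped in CPM, which leaves out the TMM factors.

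Enzymes of myelin lipid synthesis were lower in neurons in 18 of 33 tested cases and higher in 0 (median -1.93; with 7 libraries 0 higher and 25 lower of 34, median -1.53). Fa2h, which hydroxylates the fatty acids of myelin galactolipids, was at 19.6, 15, 7.89 and 4.19 CPM in neurons and 899, 955, 856 and 1630.5 CPM in oligodendrocytes (-7.21 ± 0.74, -6.54 with 7 libraries). Ugt8a, which makes galactosylceramide, differed by -6.98 ± 0.53, and Aspa, which releases acetate from N-acetylaspartate, by -6.81 ± 0.58. Scd2, a fatty acid desaturase, was already at 376, 310.2, 392 and 438 CPM in neurons and rose to 2887, 2517, 6389 and 3647 CPM in oligodendrocytes, where the female replicate 34 was highest (-3.90 ± 0.43). Enpp2, which makes lysophosphatidic acid, differed by -4.99 ± 0.43.

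The transcription factors of the oligodendrocyte lineage were lower in neurons in 12 of 16 tested cases and higher in 0 (median -3.97; with 7 libraries 0 higher and 16 lower of 18, median -3.79). Myrf, which switches on myelin genes, was at 10.9, 6.26, 5.81 and 0.763 CPM in neurons against 539.8, 852, 473 and 653 CPM in oligodendrocytes (-7.29 ± 0.79, edgeR adjusted p = 0.000157). Sox10, which acts with Myrf, was at 2.26, 9.19, 0.830 and 1.14 CPM against 222, 322, 119 and 386 CPM (-6.98 ± 0.94, -6.36 with 7 libraries), and Olig1 differed by -6.19 ± 0.62. Sox10 and Olig1 were spread over a wide range within the oligodendrocyte group, but neither overlapped the neuron group. The repressors Zeb2 (-3.95 ± 0.43) and Zfp536 (-3.98 ± 0.51) were lower too. Zeb2 was at 109.6, 281, 272 and 274 CPM in neurons, lowest in replicate 2, and 2443, 2506, 2129 and 2431 CPM in oligodendrocytes.

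Receptors and signalling proteins of oligodendrocytes were lower in neurons in 36 of 40 tested cases and higher in 0 (median -5.12; with 7 libraries 1 higher and 40 lower of 42, median -5.01). Erbb3, a neuregulin receptor, was at 0.754, 2.09, 2.08 and 1.14 CPM in neurons against 221, 239, 259 and 92.3 CPM in oligodendrocytes (-7.48 ± 0.58). Adamts4, a secreted protease (-7.13 ± 0.53), overlaps another gene on the opposite strand and is uncertain for that reason. Trf, the iron carrier transferrin, was at 43.7, 36.3, 26.6 and 33.6 CPM against 2175, 1470.2, 2342 and 1718 CPM (-6.32 ± 0.43). Anln, an actin-binding protein of cell division (-5.58 ± 0.45), and Plekhh1 (-5.71 ± 0.44) also fell in neurons. The 1 member called higher in neurons with 7 libraries was Lingo1, a receptor component that neurons use in axon growth control. It stood at 603, 615, 339 and 296 CPM in neurons and 81.5, 67.7, 82.7 and 0 CPM in oligodendrocytes, at 0 in replicate 36 alone (2.67 ± 0.92, edgeR adjusted p = 0.0723 with 8 libraries, and 2.30, 0.00023 with 7).

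**Figure D2:**
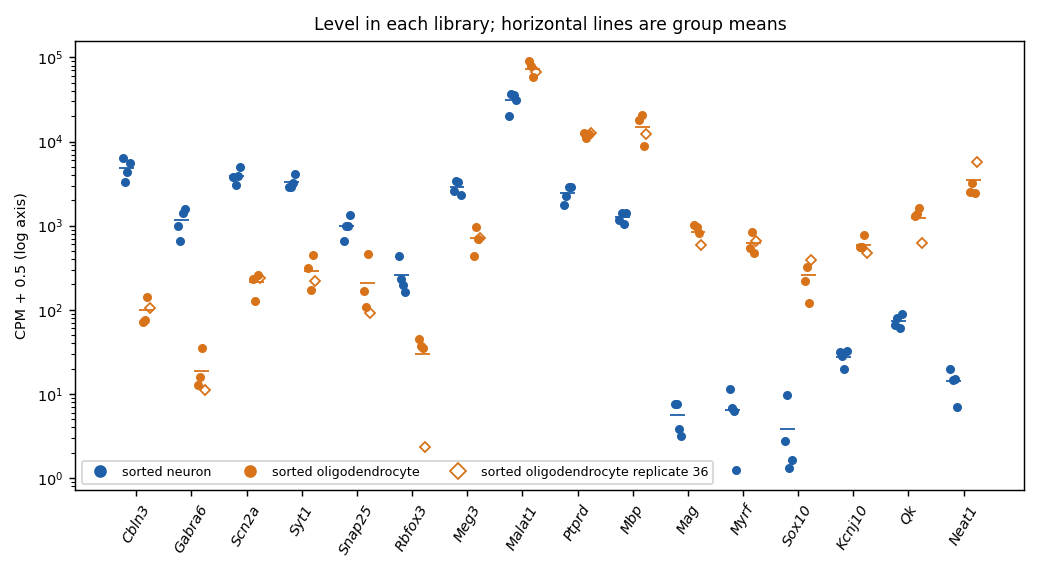
CPM + 0.5 on a log axis for 16 genes in each library, blue circles for the 4 sorted neuron libraries, orange circles for oligodendrocyte replicates 10, 12 and 34, an open orange diamond for replicate 36, and lines for group means. Replicate 36 lies above every neuron library for Mbp and Mag, above the rest of its group for Neat1 and below it for Rbfox3 and Qk.

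The strongest falls in neurons included genes outside the myelin lists. Cldn14, a tight junction claudin, Sh3tc2, an endosomal adaptor, Ankub1, Itgad, an integrin subunit, Cyp3a13, a cytochrome P450, and Slc7a15, an amino acid carrier, had 0 counts in all 4 neuron libraries. Against the limit that 3 counts over the neuron group allow, Sh3tc2 was at least 153-fold lower, Ankub1 at least 152-fold, Cyp3a13 at least 91.5-fold and Slc7a15 at least 75.4-fold, and without replicate 36 these bounds were 119, 135, 108 and 86.6. For the other two the bound rested on replicate 36. Cldn14 was at 6.82, 26.7, 8.57 and 207 CPM in oligodendrocytes, which gives at least 209-fold with replicate 36 and 47.1-fold without it. Itgad, whose exons overlap Cox6a2 on the opposite strand, was at 10.9, 8.58, 15.6 and 100.5 CPM, at least 114-fold and 39.4-fold. Few counts remained in neurons, each in 1 library, for Sec14l5 (-9.85 ± 1.07), Tmprss5, a membrane serine protease (-9.72 ± 1.02, -9.10 with 7 libraries), and Pkd2l1, a cation channel of the polycystin family (-9.33 ± 1.15, -8.38 with 7 libraries). Pkd2l1 was at 0.754, 0, 0 and 0 CPM in neurons and 60.4, 70.6, 76 and 184 CPM in oligodendrocytes. Of 2 glycosyltransferases that start O-linked sugar chains, Galnt6 was at 1.51, 5.43, 1.25 and 0.763 CPM against 621, 545, 547 and 972 CPM (-8.90 ± 0.82, -8.28 with 7 libraries). Galnt5 (-10.63 ± 1.08, -9.83 with 7 libraries) shares exon sequence with Ermn, an oligodendrocyte gene on the opposite strand, so its counts may be those of Ermn.

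Cerebellar granule cell genes led the neuronal side. Of 18 tested, 13 were higher in neurons and 0 lower (median 3.60), against 7.13% of all genes higher, and with 7 libraries 18 of 18 were higher. Their summed level was 24096, 11744, 14501 and 15644 CPM in the neuron libraries, highest in replicate 2, and 441 to 1233 CPM in oligodendrocytes. The oligodendrocyte median without replicate 36 was 5.69% of the neuron median. Cbln3, a cerebellin made by granule cells, was at 6322, 3267, 4356 and 5522 CPM in neurons against 70.9, 75.3, 141 and 104 CPM in oligodendrocytes (5.07 ± 0.48, edgeR adjusted p = 6.7e-05). Its partner Cbln1, which bridges granule cell axons to Purkinje cell receptors, was at 3005, 1451, 1483 and 1678 CPM against 47.1, 38.6, 59.2 and 1.87 CPM (5.37 ± 0.75). Fat2, a giant cadherin of granule cell axons, reached 8862, 2875, 4045 and 3108 CPM against 115, 106, 192 and 41.2 CPM (4.99 ± 0.55). Replicate 2 was the highest neuron library for all 3 of these genes, but the groups stayed apart without it. Gabra6, the GABA-A receptor subunit that marks mature granule cells, did not have its highest value in replicate 2, at 995, 653, 1415 and 1574 CPM in neurons and 12.3, 15.3, 35 and 10.6 CPM in oligodendrocytes (5.51 ± 0.53). Among granule cell transcription factors, Neurod1 (4.51 ± 0.77, overlapping Cerkl on the same strand) and Zic1 (2.91 ± 0.59, overlapping Zic4 on the opposite strand) passed. Eomes, a T-box factor of unipolar brush cells, was at 26.4, 12.1, 26.1 and 17.9 CPM in neurons and 0.341, 0, 0.745 and 0 CPM in oligodendrocytes (5.46 ± 0.85).

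Forebrain neuron lists differed in their share of calls. Of 18 genes of forebrain excitatory neurons, 2 were higher and 1 lower (median 1.03), near the 7.13% and 8.88% of all genes. With 7 libraries 8 were higher and 1 lower of 19 (median 1.13), against 17.8% and 18.4% of all genes. Arpp21, a cAMP-regulated phosphoprotein (3.64 ± 0.60), and Cck, the cholecystokinin peptide (3.18 ± 0.78), rose, and the homeobox gene Prox1, which the oligodendrocyte lineage also uses, fell (-2.28 ± 0.39). Slc17a7, the vesicular glutamate transporter VGLUT1, was at 843, 299, 288 and 236 CPM in neurons and 42.6, 30.03, 49.9 and 854 CPM in oligodendrocytes. Its direction rested on replicate 36, with -0.26 ± 1.12 (edgeR adjusted p = 0.914) from 8 libraries and 3.10 (edgeR adjusted p = 0.000536) from 7. Camk2a, a kinase of excitatory synapses, did not pass either way (-0.28 ± 0.52, edgeR adjusted p = 0.776), with overlapping groups at 381, 458, 248 and 125 CPM and 431, 210.2, 417 and 71.1 CPM. Inhibitory and striatal neuron genes were higher in 12 of 19 cases and lower in 0 (median 3.08; with 7 libraries 16 higher and 0 lower of 20, median 2.79). They included the dopamine receptor Drd1, at 82.1, 129, 144 and 121 CPM in neurons and 4.09, 1.91, 7.08 and 0 CPM in oligodendrocytes (4.73 ± 0.77), the adenosine receptor Adora2a (3.84 ± 0.81), the striatal signalling regulator Rgs9 (3.99 ± 0.79) and the substance P precursor Tac1 (4.22 ± 0.83). Reln, the secreted protein of granule cells and interneurons, rose by 4.50 ± 0.57, and was highest in replicate 2.

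Ion channels of the action potential were higher in neurons in 12 of 25 sodium and calcium channel genes and lower in 0 (median 2.23; with 7 libraries 20 higher and 0 lower of 25, median 2.32). Scn2a, a sodium channel of axons, was at 3842, 3023, 3903 and 4974 CPM in neurons and 231, 126, 258 and 241 CPM in oligodendrocytes (3.60 ± 0.43, edgeR adjusted p = 0.000303). Calcium channel subunits followed, with Cacna1e at 3.42 ± 0.70, the P/Q-type channel Cacna1a at 2.77 ± 0.54 and the L-type channel Cacna1d at 2.37 ± 0.47. Scn3a differed by 3.53 ± 0.68. Scn3b, a regulatory beta subunit of sodium channels, was at 24.9, 13.3, 54.4 and 213 CPM in oligodendrocytes and passed only without the last of these libraries (2.70, edgeR adjusted p = 0.00157, against 0.72 ± 0.89 and 0.655 with 8).

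Potassium channels split between the 2 cell types. Of 32 tested, 15 were higher and 6 lower in neurons (with 7 libraries 24 higher and 6 lower of 32, median 2.01). On the neuronal side stood Kcnd2, the A-type channel of dendrites, at 897, 621, 563 and 561 CPM against 20.1, 22.9, 40.6 and 2.50 CPM (4.58 ± 0.62). The leak channel Kcnk1 (4.24 ± 0.64), the G-protein-gated channels Kcnj3 (3.47 ± 0.42) and Kcnj6 (3.57 ± 0.77) and the M-type channel Kcnq5 (3.13 ± 0.64) joined it. On the oligodendrocyte side stood Kcnj10, the inward rectifier Kir4.1 that clears potassium around axons, at 30.9, 27.6, 19.1 and 31.7 CPM in neurons against 552, 558, 783 and 471 CPM in oligodendrocytes (-4.95 ± 0.42, edgeR adjusted p = 4.08e-05). The leak channel Kcnk13 (-5.26 ± 0.89), the Shaker-type channel Kcna6 (-4.06 ± 0.40) and the pacemaker channel Hcn2 (-3.94 ± 0.76) were lower in neurons as well. Kcna1, an axonal Shaker channel, was lower by a smaller margin (-1.33 ± 0.32). In CPM, which leaves out the TMM factors, its neuron values of 448, 358, 502 and 535 overlapped replicate 36 among 957, 934, 1033 and 448 CPM. Kcnh1 passed only without that library, which held 251 CPM of it (2.93 with 7 libraries, 0.37 ± 0.96 with 8).

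**Figure D3:**
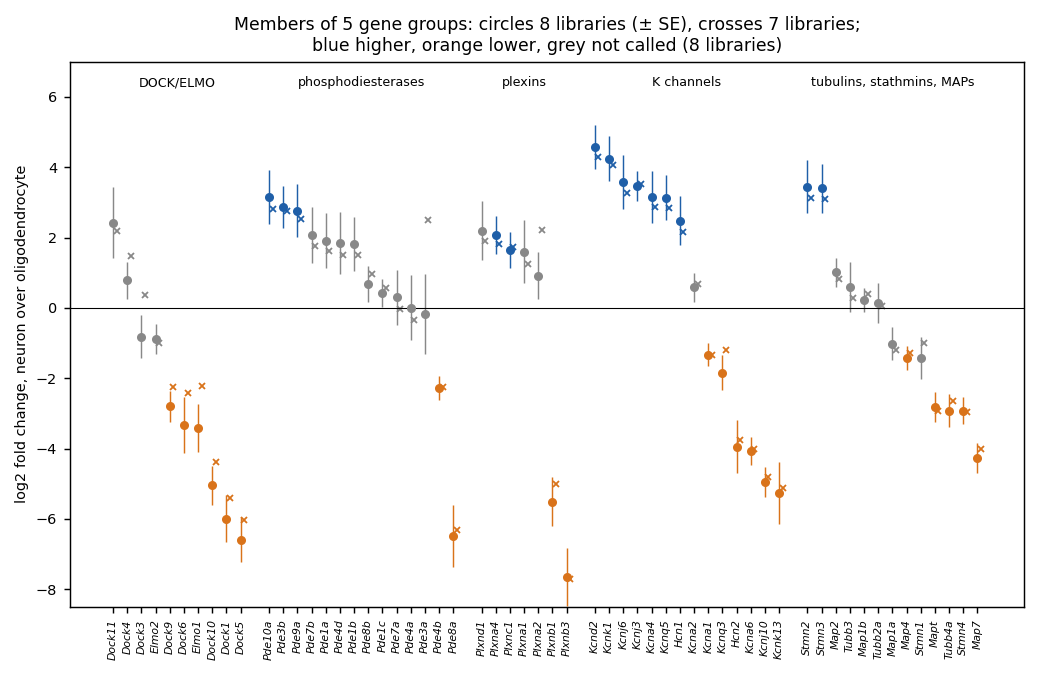
Log2 fold change of neuron over oligodendrocyte for members of 5 gene groups, circles from 8 libraries with SE bars and crosses from 7 libraries, blue where called higher, orange where called lower and grey where not called with 8 libraries. The phosphodiesterases are shown with every tested member and the other groups in part, picked with their values known, and Kcnd2 and Kcnj10 lie on opposite sides of 0.

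Receptor genes for inhibitory and excitatory transmitters were called higher in neurons more often than lower. GABA-A and glycine receptor genes were higher in 10 of 18 cases and lower in 0 (median 2.80; with 7 libraries 15 higher and 1 lower of 19, median 2.64). Beside Gabra6, the extrasynaptic subunit Gabrd was at 423, 234, 179 and 237 CPM in neurons and 6.48, 5.24, 12.3 and 0 CPM in oligodendrocytes (5.10 ± 0.81). The beta subunit gene Gabrb2 (4.0 ± 0.80) rose too. The metabotropic receptor gene Gabbr1 did not pass, at 864, 657, 664 and 648 CPM and 609.7, 1029, 478 and 863 CPM (-0.69 ± 0.42, edgeR adjusted p = 0.317, and above 0 with library totals and 7 libraries). Glutamate receptors were higher in 11 of 23 cases and lower in 1 (median 2.16; with 7 libraries 15 higher and 1 lower of 24, median 1.92). Among them, the AMPA receptor subunit Gria2 was at 554, 983, 1439 and 1589 CPM against 85.2, 55.8, 182 and 79.9 CPM (2.97 ± 0.49), Gria4 differed by 2.05 ± 0.40, and the NMDA receptor subunit Grin2c by 4.46 ± 0.91. The metabotropic receptors went both ways. Grm4, of parallel fibre terminals (4.55 ± 0.96), and Grm5 (3.94 ± 0.77) rose, whereas Grm3, a receptor that glia use, was at 87, 152, 134 and 167 CPM in neurons against 536, 369.9, 563 and 314 CPM in oligodendrocytes (-2.24 ± 0.37).

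Genes of vesicle release were higher in 10 of 32 cases and lower in 0 (median 1.65; with 7 libraries 22 higher and 1 lower of 32, median 1.43). Syt1, the calcium sensor of release, was at 2892, 2858, 3242 and 4079 CPM in neurons and 314, 173, 443 and 218 CPM in oligodendrocytes (3.0 ± 0.38, edgeR adjusted p = 0.000436). Syt4 (4.96 ± 0.79), the priming factor Unc13c of granule cells (4.10 ± 0.69), the vesicle glycoprotein Sv2b (3.77 ± 0.47) and the active zone protein Rims2 (3.34 ± 0.43) also rose. Of 25 pan-neuronal genes 8 were higher and 1 lower (with 7 libraries 15 higher and 2 lower of 25, median 1.5). Of 20 postsynaptic scaffold genes 3 were higher and 0 lower (with 7 libraries 8 higher and 1 lower of 20, median 0.68). Over all genes 7.13% were higher and 8.88% lower (17.8% and 18.4% with 7 libraries). The pan-neuronal genes summed to 13780 to 17610 CPM in neurons and 1850 to 4945 CPM in oligodendrocytes. The oligodendrocyte median without replicate 36 was 25.8% of the neuron median, a larger share than the 5.69% of the granule cell list, a difference that was not tested. The 1 pan-neuronal gene lower in neurons was Mapt, which encodes tau and is used by oligodendrocytes too, at 164, 96.9, 118 and 78.2 CPM and 708, 884, 548 and 246 CPM (-2.81 ± 0.43). Calcium handling genes gave 7 higher and 1 lower of 30 (with 7 libraries 19 higher and 1 lower of 30, median 1.47). The pump Atp2b2 was at 4531, 2460.1, 2149 and 2074 CPM against 416, 271, 513 and 43.1 CPM (2.84 ± 0.57), the ryanodine receptor Ryr2 differed by 3.21 ± 0.63 and the kinase Camk4 by 2.59 ± 0.42, whereas the inositol trisphosphate receptor Itpr2 was lower (-1.84 ± 0.53).

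Adhesion genes of the synapse were higher in neurons in 19 of 37 cases and lower in 1 (median 1.96), against 7.13% and 8.88% of all genes. With 7 libraries 31 were higher and 2 lower of 37 (median 2.03), against 17.8% and 18.4% of all genes. Ntm, an IgLON protein of the neuronal surface, was at 850.0, 727, 551 and 601 CPM in neurons and 53.2, 39.6, 41 and 18.7 CPM in oligodendrocytes (3.71 ± 0.40). Its relatives Negr1 (3.53 ± 0.39) and Lsamp (2.44 ± 0.39), the contactin Cntn6 (4.95 ± 0.62) and the teneurin Tenm1 (3.67 ± 0.49) rose with it. The exception was Ptprd, a receptor phosphatase known as a presynaptic organiser. Ptprd was at 1779.5, 2244, 2895 and 2847 CPM in neurons and 12626, 11116, 12268 and 12699 CPM in oligodendrocytes, and was among the 5 lower genes with the largest share of counts (-2.91 ± 0.35, edgeR adjusted p = 0.000293). All 4 oligodendrocyte libraries lay within a narrow range, replicate 36 included. In GENCODE M21 (GRCm38) Ptprd lies on chromosome 4 from 75941238 to 78211961, above 300 kb in span.

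The list of axonal partners of myelin held calls in both directions. Of 24 tested, 11 were higher and 3 lower in neurons (with 7 libraries 17 higher and 3 lower of 25, median 1.70). Cntnap2, of the axonal membrane beside the node, was at 216, 254, 215 and 214 CPM in neurons against 13.3, 19.1, 32.4 and 13.1 CPM (3.03 ± 0.46). Nrcam (3.12 ± 0.50), Cntn1 (2.29 ± 0.39), Cadm2 (1.82 ± 0.34) and the secreted ligand Lgi1 (3.32 ± 0.57) rose as well. Nfasc, whose isoforms serve the axon at the node and the glial loops beside it, was at 524, 463, 321 and 273 CPM in neurons against 3379, 5238, 2900.4 and 1073 CPM in oligodendrocytes (-3.41 ± 0.44). Cntn2 (-2.70 ± 0.48) and the membrane skeleton protein Epb41l3 (-2.83 ± 0.63, -1.73 with 7 libraries) were also lower. Counts per gene cannot separate the isoforms of Nfasc. The scaffold genes Ank2 (-0.58 ± 0.29, edgeR adjusted p = 0.209) and Ank3 (-0.41 ± 0.31, edgeR adjusted p = 0.418) were abundant in both groups and did not pass.

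Cytoskeleton genes gave 2 higher and 7 lower of 34, against 7.13% and 8.88% of all genes (median -0.08). With 7 libraries 4 were higher and 10 lower of 34 (median -0.21), against 17.8% and 18.4% of all genes. The stathmins, which bind free tubulin, split, with Stmn2 at 3.45 ± 0.75 and Stmn3 at 3.4 ± 0.70 against Stmn4 at -2.92 ± 0.38. Stmn4 was at 249, 425, 203 and 343 CPM in neurons and 2137, 2199, 1490.4 and 844 CPM in oligodendrocytes. Lower too were Tubb4a, a brain beta-tubulin (-2.92 ± 0.48), the microtubule-associated protein Map7 (-4.27 ± 0.44), the kinesin Kif1b (-1.64 ± 0.33) and Dst, the cytoskeletal linker dystonin (-1.16 ± 0.29). Macf1, a linker related to Dst, was at 7145, 6443, 6205 and 6991 CPM and 6526, 5637, 6655 and 6602 CPM, with overlapping groups (-0.51 ± 0.31, edgeR adjusted p = 0.324, and above 0 with library totals). Map2, the dendritic microtubule protein, passed with 7 libraries only (0.81, edgeR adjusted p = 0.0286, and 1.01 ± 0.40, 0.116 with 8).

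Transporter families held members on each side. Of 23 carriers of transmitters and ions, 4 were higher and 6 lower, against 7.13% and 8.88% of all genes. With 7 libraries 9 were higher and 9 lower of 24 (median 0.30), against 17.8% and 18.4%. The chloride exporter KCC2, Slc12a5, was higher at 518, 210.0, 261 and 213 CPM against 54.2, 30.03, 82.3 and 1.87 CPM (2.52 ± 0.75), and the chloride importer NKCC1, Slc12a2, lower at 53.9, 50.9, 71.4 and 82 CPM against 344, 316, 599.8 and 249 CPM (-3.04 ± 0.41). The neuronal glutamate carrier Slc1a1 (2.54 ± 0.65) rose, and the glycine carrier Slc6a9 (-4.45 ± 0.58), which overlaps B4galt2 and Ccdc24 on the opposite strand, fell. Among sodium-calcium exchangers, Slc8a2 was higher (3.82 ± 0.80) and the potassium-dependent Slc24a2 lower (-2.31 ± 0.31). The zinc carrier of vesicles Slc30a3 (2.73 ± 0.81) rose and the choline carrier Slc44a1 (-2.39 ± 0.41) fell. Glucose carriers were called in both directions, with the neuronal GLUT3, Slc2a3, at 268, 195, 264 and 238 CPM against 24.6, 16.7, 32.8 and 0 CPM (3.36 ± 0.83) and GLUT1, Slc2a1, at 67.4, 33, 25.7 and 13.3 CPM against 189, 219, 215 and 15 CPM (-2.52 ± 0.73). Slc2a1 in replicate 36 lay within the neuron range. Other genes of glucose use gave 1 call each way, the glycolytic enzyme Pfkm (1.96 ± 0.58, overlapping Senp1 on the opposite strand) and Pdk4, which restrains pyruvate use (-5.00 ± 0.85). In all, 2 of 25 were higher and 2 lower, near the 7.13% and 8.88% of all genes. With 7 libraries 6 were higher and 4 lower of 25 (median 0.39), against 17.8% and 18.4% of all genes.

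Axon guidance genes gave 12 higher and 7 lower of 42 (with 7 libraries 25 higher and 9 lower of 43, median 1.37). Of the ephrin receptors, those higher in neurons included Epha3 at 73.5, 63.5, 83.4 and 69.8 CPM against 0.682, 1.43, 3.73 and 0 CPM (5.14 ± 0.78), Epha7 (3.61 ± 0.49) and Epha6 (3.09 ± 0.59), together with the Slit receptor Robo2 (3.43 ± 0.69) and the netrin family member Ntn4 (3.98 ± 0.88). Plexins of the B class, semaphorin receptors, gave calls on the other side. Plxnb3 was at 5.27, 1.25, 0.415 and 1.14 CPM in neurons and 381, 474, 235 and 155 CPM in oligodendrocytes (-7.64 ± 0.82), and Plxnb1 differed by -5.51 ± 0.70. The ephrin Efnb3 (-5.41 ± 0.56), the netrin receptor Unc5b (-3.58 ± 0.64, -2.93 with 7 libraries) and the semaphorin Sema6a (-2.73 ± 0.49) were lower in neurons too.

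Exchange factors that act on small GTPases had a median of -2.80. Of 11 DOCK and ELMO genes, 1 was higher and 6 lower (with 7 libraries 2 higher and 7 lower of 11, median -2.21), and their summed level was 976 to 1176 CPM in neurons and 2409 to 4635 CPM in oligodendrocytes, highest in replicate 36. Dock5 was at 4.14, 5.01, 2.91 and 8.77 CPM in neurons and 292, 317, 234 and 437 CPM in oligodendrocytes (-6.59 ± 0.65, edgeR adjusted p = 9.21e-05). Dock1 (-6.00 ± 0.67, -5.40 with 7 libraries), Dock10 (-5.04 ± 0.55, -4.37 with 7 libraries), Dock9 (-2.80 ± 0.44) and the DOCK partner Elmo1 (-3.42 ± 0.68, -2.21 with 7 libraries) followed. Dock5 and Dock10 were also members of the oligodendrocyte signalling list, as were Plxnb3 and Sema6a above and Pde8a, Pde4b and Sirt2 below. The lists are therefore not separate from each other. Phosphodiesterases, which break down cyclic nucleotides, gave 3 higher and 2 lower of 14 (with 7 libraries 7 higher and 2 lower of 15, median 1.5). The striatal Pde10a was at 970.2, 1240.5, 1337 and 1070.5 CPM against 146, 83, 181 and 2.50 CPM (3.15 ± 0.77), and Pde3b (2.86 ± 0.60) and Pde9a (2.77 ± 0.75) rose. Pde8a was at 8.67, 2.51, 1.66 and 0.381 CPM against 214, 315, 142 and 178 CPM (-6.48 ± 0.88), and Pde4b, at -2.27 ± 0.35, was lower as well.

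Genes of the neurotrophin system were called in both directions. Of 9 tested genes 4 were higher and 2 lower, against 7.13% and 8.88% of all genes. With 7 libraries 5 were higher and 3 lower of 10 (median 1.05), against 17.8% and 18.4%. The ligands Bdnf, at 84, 67.2, 63.5 and 109 CPM in neurons and 4.09, 1.43, 7.82 and 1.87 CPM in oligodendrocytes (3.93 ± 0.64), and Ntf3, at 10.2, 19.2, 12.9 and 22.1 CPM and 0, 0, 0.745 and 0 CPM (5.55 ± 0.92), rose. Their receptors Ntrk2 (1.56 ± 0.43) and Ntrk3 (3.44 ± 0.87) rose as well. Sortilin, Sort1, which traffics neurotrophins, was at 276, 324, 210.0 and 200.2 CPM and 709.6, 844, 796 and 608 CPM (-2.09 ± 0.35), and its relative Sorcs1 was lower too (-2.02 ± 0.44). Immediate early genes, which mark recent activity, were higher in 5 of 15 cases and lower in 0 (with 7 libraries 10 higher and 1 lower of 16, median 1.82). Npas4, induced by calcium entry, was at 5.65, 20.9, 25.7 and 13.3 CPM against 0.341, 1.43, 0.745 and 0 CPM (4.13 ± 0.81). Nr4a3 (2.50 ± 0.73), Btg2 (2.98 ± 0.65) and Junb (3.78 ± 1.01, overlapping Prdx2 on the opposite strand) passed beside Bdnf.

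**Figure D4:**
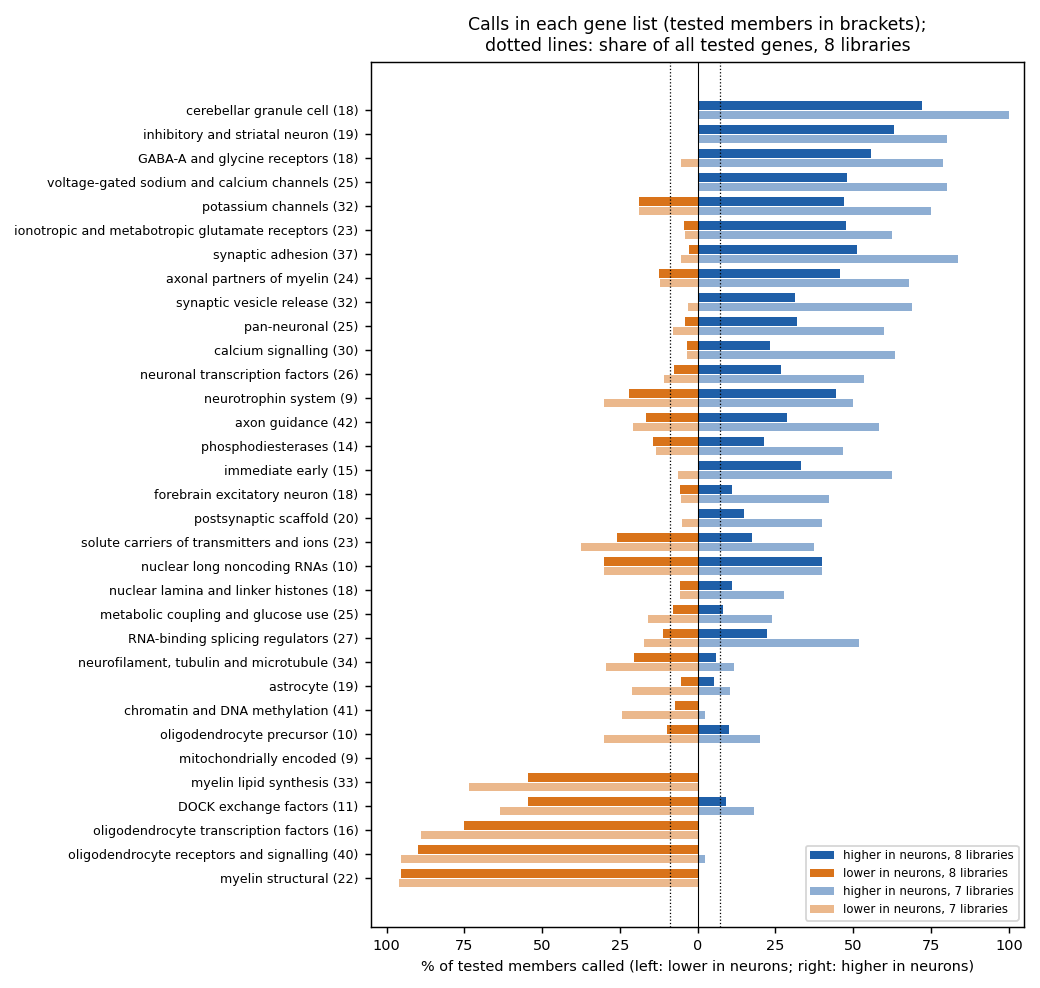
Share of tested members called higher (right, blue) or lower (left, orange) in neurons for the gene lists with most members, dark bars from 8 libraries and pale bars from 7, ordered by median log2 fold change. Dotted lines mark the 7.13% of all tested genes called higher and the 8.88% called lower with 8 libraries, and myelin structural genes stand at the bottom with 21 of 22 lower. The shares of all genes with 7 libraries, 17.8% and 18.4%, are not drawn.

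Regulators of splicing gave 6 higher and 3 lower of 27 (with 7 libraries 15 higher and 5 lower of 29, median 1.26). Rbfox3, the neuronal antigen NeuN, was at 432, 234, 197 and 162 CPM in neurons and 44.3, 36.7, 34.6 and 1.87 CPM in oligodendrocytes (2.78 ± 0.69). Srrm4, which sets neuronal microexons (2.89 ± 0.84), Khdrbs2 (3.66 ± 0.77), Celf5 (2.35 ± 0.62) and Celf1 (1.25 ± 0.34) rose. Qk, the quaking protein that controls myelin transcripts, was at 65.6, 78.5, 61 and 88.1 CPM against 1293, 1362, 1609 and 615 CPM (-4.51 ± 0.37, edgeR adjusted p = 3.1e-05), and Mbnl2 (-1.62 ± 0.39) and the speckle protein Srrm2 (-1.53 ± 0.42, overlapping Elob on the opposite strand) were lower. Celf2 stood at 924, 1703, 1285 and 1177 CPM in neurons and 246, 261, 378 and 1434 CPM in oligodendrocytes. It passed without replicate 36 (1.82, edgeR adjusted p = 0.0003) and not with it (0.24 ± 0.70, edgeR adjusted p = 0.867).

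Nuclear lncRNAs held some of the most abundant differences. Of 10 tested, 4 were higher and 3 lower, the same numbers with 7 libraries. Neat1, the scaffold of paraspeckles (chromosome 19 from 5824708 to 5845478), was at 19.2, 14.2, 14.5 and 6.48 CPM in neurons against 2542, 3184, 2437 and 5750.1 CPM in oligodendrocytes (-8.71 ± 0.73, edgeR adjusted p = 3.67e-05, and -7.92 with 7 libraries). Its neighbour Malat1 (chromosome 19 from 5795690 to 5802672), a speckle RNA, took the largest share of counts of any gene that passed, at 20003, 36810, 35983 and 31616 CPM against 90314, 79934, 58795 and 66390 CPM (-1.82 ± 0.31). Neat1 was low in every neuron library, whereas Malat1 was abundant in both groups, lowest in neuron replicate 2. Pvt1 was lower too (-2.75 ± 0.68, -2.0 with 7 libraries). The imprinted RNAs of 1 locus rose together in neurons, with Meg3 at 2562, 3409, 3295 and 2292 CPM against 435, 973, 699 and 714 CPM (1.44 ± 0.38), Rian at 3.75 ± 0.44 and Mirg at 3.93 ± 0.71, and Snhg11 rose by 2.65 ± 0.42. Rian hosts small RNA genes on the same strand, so its counts may include them. Among all lincRNA genes tested, 30 of 200 were higher and 18 lower (24% called, and 48 and 47 with 7 libraries), against 15.8% of 11247 protein-coding genes (2020 and 1959 with 7 libraries).

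Of 41 chromatin regulators tested, 0 were higher and 3 lower, against 7.13% and 8.88% of all genes (median -0.31). With 7 libraries 1 was higher and 10 lower of 41 (median -0.10), against 17.8% and 18.4% of all genes. The deacetylases Hdac7 (-3.57 ± 0.75, overlapping Slc48a1) and Sirt2, a myelin-associated tubulin deacetylase (-2.83 ± 0.58, -2.10 with 7 libraries, overlapping Nfkbib), and the methylcytosine oxidase Tet1 (-1.64 ± 0.49, -0.91 with 7 libraries) were the 3 lower with 8 libraries. Nuclear envelope and histone genes gave 2 higher and 1 lower of 18, a number of calls near that of all genes (with 7 libraries 5 higher and 1 lower of 18, median 0.29). Syne1, which ties the nucleus to the cytoskeleton, was at 876, 727, 745 and 744 CPM in neurons and 36.5, 32.9, 63.7 and 4.99 CPM in oligodendrocytes (4.12 ± 0.56). The variant histone H2afz rose (1.65 ± 0.47) and the lamin B receptor Lbr fell (-2.46 ± 0.57, -1.76 with 7 libraries, overlapping Dnah14). Transcription factors of neurons gave 7 higher and 2 lower of 26 (with 7 libraries 15 higher and 3 lower of 28, median 1.21).

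The largest rises in neurons were of genes with few or no counts in oligodendrocytes. Serpina9, a serine protease inhibitor, was at 11.3, 17.5, 38.2 and 17.9 CPM in neurons and 0, 0, 0.373 and 0 CPM in oligodendrocytes (6.71 ± 0.97). Adamts18, a secreted protease (6.23 ± 0.87), Xkr7 (5.88 ± 0.99), the potassium channel Kcnk12 (5.71 ± 1.09) and Tbata (5.54 ± 0.91) had at most a few counts per oligodendrocyte library. Crtam, an immunoglobulin family adhesion protein, was at 252, 206, 332 and 384 CPM against 8.18, 5.72, 4.47 and 0 CPM (5.57 ± 0.76, edgeR adjusted p = 0.000709). Cnpy1 was at 463, 411, 501 and 545 CPM against 6.14, 9.53, 13 and 4.37 CPM (5.38 ± 0.46), a narrow range within both groups, and Olfm3, an olfactomedin that binds AMPA receptors, was at 318, 243, 535 and 699 CPM against 5.11, 7.63, 21.2 and 0 CPM (5.35 ± 0.90).

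Gene span, from first to last annotated base, differed among the called genes. The median span was 62.23 kb for protein-coding genes higher in neurons, 40.38 kb for those lower and 27.97 kb for all tested. Of 490 genes over 300 kb, 28.4% were higher and 9.8% lower, and of 3452 genes from 10 to 30 kb, 4.17% were higher and 7.76% lower. Without replicate 36, and over the same genes, the shares above 300 kb were 50% and 14.7%, and from 10 to 30 kb 12.5% and 16.3%. Exon length differed less, with medians of 5.542 kb, 5.674 kb and 4.93 kb for higher, lower and all tested genes. These are descriptions without a test. The sources used here do not say whether intronic reads were counted.

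**Figure D5:**
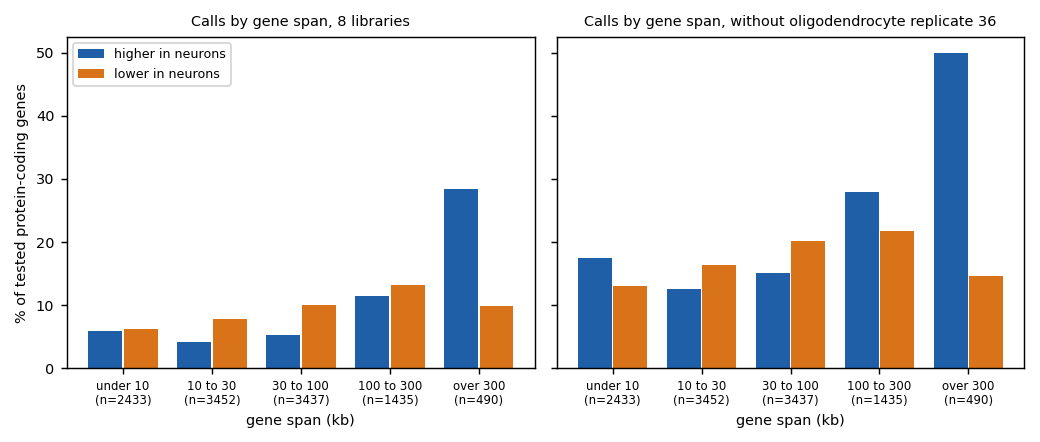
Share of tested protein-coding genes called higher (blue) or lower (orange) in neurons by gene span in kb, with 8 libraries (left) and without oligodendrocyte replicate 36 (right, over the same genes). The highest bar of each panel is that of genes over 300 kb higher in neurons, at 28.4% and 50%.

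Promoter sequence was examined for genes that moved together. The letters ACAAAG, the core that SOX factors such as Sox10 bind, were searched on both strands of RefSeq windows from 250 bases before to 50 after each start (GRCm38.p6), and CAGCTG, an E-box that basic helix-loop-helix factors such as Olig1 bind, likewise. Matches of the 2 motifs cannot overlap each other. Of the 11887 tested genes, 8986 matched a RefSeq window by symbol. ACAAAG was in 13.5% of the 11758 windows of all tested genes, 14.6% of those of genes higher in neurons and 16.1% of those lower (14.2% and 14.8% with calls from 7 libraries). It was in 8 of 29 windows (27.6%) of the myelin structural list, 11 of 41 (26.8%) of the oligodendrocyte receptor and signalling list and 4 of 19 (21.1%) of the granule cell list. CAGCTG was in 15.1% of the windows of all tested genes, 17.6% of those higher and 18.3% of those lower (16.1% and 17.4% with 7 libraries), and in 4 of 29 (13.8%), 13 of 41 (31.7%) and 2 of 19 (10.5%) of the same lists. The windows of 1 gene overlap, and a match is a run of letters, not a bound site. The 250 bases before a RefSeq start are printed for 2 myelin genes and 2 genes among the largest rises in neurons, picked because each holds ACAAAG, from the first of the gene's RefSeq windows that does, to show that the letters occur on both sides of the comparison. For Cnp, Tspan2 and Cnpy1 this start lies inside the GENCODE M21 span of the gene, so the bases are not all upstream of the whole gene. The span of Cnp begins at 100574904, so the last bases printed for it lie within the gene. Capitals mark ACAAAG or CAGCTG on either strand, and each sequence is read 5′ to 3′ along its gene.
Cnp, chr11:100574689-100574938, plus strand: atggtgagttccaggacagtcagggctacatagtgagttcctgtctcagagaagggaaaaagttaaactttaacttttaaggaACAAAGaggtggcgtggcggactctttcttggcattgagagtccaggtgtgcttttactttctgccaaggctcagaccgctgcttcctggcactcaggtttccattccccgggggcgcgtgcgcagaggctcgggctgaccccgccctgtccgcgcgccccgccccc
Tspan2, chr3:102734965-102735214, plus strand: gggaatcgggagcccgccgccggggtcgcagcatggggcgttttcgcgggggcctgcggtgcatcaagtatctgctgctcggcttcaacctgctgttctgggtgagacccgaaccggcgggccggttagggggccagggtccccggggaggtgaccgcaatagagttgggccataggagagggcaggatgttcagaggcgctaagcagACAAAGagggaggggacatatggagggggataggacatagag
Cnpy1, chr5:28210169-28210418, minus strand: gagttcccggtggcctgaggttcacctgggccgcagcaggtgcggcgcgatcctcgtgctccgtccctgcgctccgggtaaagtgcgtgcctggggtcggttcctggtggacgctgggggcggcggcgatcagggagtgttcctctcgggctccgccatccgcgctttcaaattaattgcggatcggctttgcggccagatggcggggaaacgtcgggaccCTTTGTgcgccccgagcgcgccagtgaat
Olfm3, chr3:114903828-114904077, plus strand: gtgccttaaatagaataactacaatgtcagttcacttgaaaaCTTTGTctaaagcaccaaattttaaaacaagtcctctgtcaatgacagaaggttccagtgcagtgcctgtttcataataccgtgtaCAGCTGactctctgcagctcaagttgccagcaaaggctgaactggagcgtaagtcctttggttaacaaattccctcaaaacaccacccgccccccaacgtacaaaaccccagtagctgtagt

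Markers of other cell types were checked as well, beside shares over all genes of 7.13% higher and 8.88% lower (17.8% and 18.4% with 7 libraries). Astrocyte markers, 1 higher and 1 lower of 19 (2 and 4 with 7 libraries), summed to 1596 to 1919 CPM in neurons and 2966 to 4428 CPM in oligodendrocytes. The lower one was Fgfr2, a growth factor receptor that oligodendrocytes also use, at 35.4, 41.8, 8.30 and 24.4 CPM against 2054, 2224, 2402 and 3292 CPM (-7.15 ± 0.67, sharing exon sequence with Ctbp2), and the higher one was Grin2c. Fgfr2 made up most of the astrocyte sum in every oligodendrocyte library (3118, 2966, 4428 and 3749.5 CPM). The higher sum there therefore rests on this gene and is not a rise of the list, whose median log2 fold change was -0.27. Precursor markers gave 1 higher and 1 lower of 10 (2 and 3 with 7 libraries), the lower one Gpr17, a receptor of newly formed oligodendrocytes (-3.51 ± 0.59, overlapping Lims2). Microglia, endothelial and blood markers gave 0 calls among 6, 3 and 5 tested, and 0, 0 and 0 higher but 3, 4 and 0 lower among 9, 7 and 5 with 7 libraries. Their sums reached at most 172, 230 and 81.5 CPM. Mural and fibroblast markers summed to 11 to 26 CPM in neurons and 70.6, 196, 230 and 4.37 CPM in oligodendrocytes, and the collagen Col1a1 passed with overlapping groups (-4.26 ± 1.23), 1 of 3 tested (5 of 6 lower with 7 libraries). Of 4 ependymal and choroid plexus markers, the homeobox gene Otx2 was higher in neurons (4.56 ± 0.90) and 0 were lower (1 higher and 1 lower of 5 with 7 libraries). Mitochondrially encoded transcripts summed to 222 to 417 CPM in the 4 male libraries and 585 to 3387 CPM in the 4 female ones, with 0 of 9 called between cell types. The part of these other cells and of mitochondrial RNA in the results was not tested.

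Presort nuclei of the 2 lines gave 0 called genes of 5496 by edgeR, with 250 at an unadjusted p under 0.05 and 3 called by DESeq2. Presort libraries of these lines held 219714 to 313720 counts, and in simulated data of this comparison edgeR recovered 97% of genes changed 8-fold and 20% of those changed 2-fold, so most differences of 2-fold between the lines could be missed. Among genes higher in sorted neurons and tested in presort nuclei (478), the median presort log2 fold change was 0.12, against 3.05 in all those higher after sorting. Among the 579 lower ones it was -0.06 against -3.29. Within the sorted libraries, the males alone, which do not include replicate 36, gave 4020 calls (32.2% of 12476 tested). The females alone gave 0 of 11951 by edgeR, with 1145 at an unadjusted p under 0.05 and 513 by DESeq2. The interaction of sex and cell type gave 0 calls of 11887 by edgeR (210 at an unadjusted p under 0.05, 19 by DESeq2). In simulated data of this design it recovered 0% of genes changed 8-fold, so the females' 0 does not show a difference between the sexes.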

How the data were processed

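Nuclear RNA of sorted and presort nuclei was extracted and amplified with the Ovation RNAseq V2 kit, per the labels' protocols. The authors deposited 1 table of read counts per gene for the 26 libraries, used here as whole-number counts. Trimmomatic, Bowtie2, STAR, bedtools and edgeR are named without versions or roles in the submitters' processing notes, and the sources used here do not name the genome build, the annotation or any use of strand. The table held 27501 genes, of which 26574 matched GENCODE M21 (GRCm38) by name, used for spans, biotypes and overlaps.

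Groups came from the sample labels. The 8 libraries were fitted alone in edgeR 4.0.16 (R 4.3.3) with TMM factors, filterByExpr by group (minimum count 10), glmQLFit and glmQLFTest, with p-values adjusted by Benjamini-Hochberg over all genes tested, and again without oligodendrocyte replicate 36. The SE is the log2 fold change over the square root of F. CPM scales counts by the library total, without TMM factors. DESeq2 1.42.0 and limma 3.58.1 (voom with sample quality weights) were alternatives, beside other scalings, filters, sex as a covariate and each replicate left out. The script was tested on simulated counts, with the same spread in every library for a gene and 100 genes changed at each fold. Replicates of a group differed by more than sampling noise (chi-square per degree of freedom at least 6.55 in sorted and 1.97 in presort groups). Intervals and floors cover counting error only.

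The comparison, the 38 gene lists and the rule for named genes were chosen with earlier results of these data known. Named were the driver genes with Rpl10a and GFP, the 12 largest fold changes each way with groups not overlapping and at least 10 CPM in the higher group, up to 5 passing members of each list each way and up to 2 that did not pass, the 5 passing genes each way with most counts, and those whose call changed without replicate 36. Unnamed gene models and near-identical copies were left out, and some genes that met the rule are not reported here. Besides those pointed out beside their values, exons of Ank2, Arpp21, Cacna1d, Camk4, Celf2, Enpp2, Kcna6, Kcnj3, Kcnq5, Mbnl2, Meg3, Neurod1, Olig1, Otx2, Plekhh1, Slc1a1, Snhg11, Sv2b, Syt4, Tenm1 and Trf overlap another gene, so their counts are uncertain to that extent.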

Additional observations from a re-analysis of the deposited data

Results flagged for a closer look

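A value was singled out where 1 library of a group of 4 lay far from the other 3, by Dixon's test at the 95% level. This happened in 46 of 390 group checks (11.8%), 21 of them at oligodendrocyte replicate 36. The level of the test assumes normally distributed values, whereas a group with 0 CPM in 3 libraries and counts in 1 is always singled out. The share can therefore not be set against a chance rate. No cause was tested for any of them.

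Oligodendrocyte replicate 36 counted 7674 genes, where replicates 10, 12 and 34 counted 16223 to 16575, and its TMM scaling factor was 0.541 against 0.930 to 0.988. It was the low library of its group for Rpl10a 0 CPM (36.2 to 38.7 in the others), Adamts4 303 CPM (710.0 to 742 in the others), Kcna1 448 CPM (934 to 1033 in the others), Slc2a1 15 CPM (189 to 219 in the others), Epha7 3.12 CPM (12.9 to 14.5 in the others) and Srrm4 0 CPM (26.2 to 31.3 in the others). It was the high library for Cldn14 207 CPM (6.82 to 26.7 in the others), Itgad 100.5 CPM (8.58 to 15.6 in the others), Pkd2l1 184 CPM (60.4 to 76 in the others), Fa2h 1630.5 CPM (856 to 955 in the others), Epb41l3 659.6 CPM (213 to 226 in the others), Unc5b 734 CPM (396 to 451 in the others), Tet1 641 CPM (318 to 355 in the others), Dock9 1156 CPM (761 to 783 in the others), Elmo1 811 CPM (176 to 271 in the others), Dock10 1209 CPM (649 to 708 in the others), Slc17a7 854 CPM (30.03 to 49.9 in the others), Celf2 1434 CPM (246 to 378 in the others) and Kcnh1 251 CPM (15.3 to 26.4 in the others).

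Neuron replicate 2 was the high library of its group for Cbln1 3005 CPM (1451 to 1678 in the others), Gabbr1 864 CPM (648 to 664 in the others), Grm4 1234 CPM (297 to 441 in the others), Grin2c 385 CPM (87.3 to 129 in the others), Slc8a2 369 CPM (79.8 to 117 in the others), Slc12a5 518 CPM (210.0 to 261 in the others), Syne1 876 CPM (727 to 745 in the others), Reln 1322 CPM (507 to 644 in the others), Atp2b2 4531 CPM (2074 to 2460.1 in the others) and Slc17a7 843 CPM (236 to 299 in the others). It was the low one for Zeb2 109.6 CPM (272 to 281 in the others), Slc1a1 107 CPM (154 to 158 in the others), Slc24a2 646 CPM (1052 to 1091 in the others) and Dock10 25.2 CPM (43.5 to 46.1 in the others). It alone among the neuron libraries held counts of Galnt5 (0.377 CPM) and Pkd2l1 (0.754 CPM).

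The remaining values were of a few counts where the other 3 libraries had 0, or of 1 library away from a close group. The former were Serpina9 at 0.373 CPM in oligodendrocyte replicate 34, Xkr7 at 0.341 CPM in oligodendrocyte replicate 10, Ntf3 at 0.745 CPM in oligodendrocyte replicate 34, Sec14l5 at 0.415 CPM in neuron replicate 26, Tmprss5 at 0.418 CPM in neuron replicate 4 and Junb at 1.70 CPM in oligodendrocyte replicate 10. The latter were Galnt6 at 5.43 CPM in neuron replicate 4 against 0.763 to 1.51, Cntnap2 at 254 CPM in neuron replicate 4 against 214 to 216 and Macf1 at 5637 CPM in oligodendrocyte replicate 12 against 6526 to 6655.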

How the results depend on the processing

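No named gene that passed with 8 libraries changed direction under the 23 settings, whereas the number of calls moved. DESeq2 gave 2216 higher genes, and voom with sample quality weights in limma 2898 higher and 2999 lower. Males alone gave 1982 and 2038, females alone 0 and 0 by edgeR, and a fit with all 12 sorted libraries 1395 and 1610. With library totals only, a setting chosen after seeing the data, 702 were lower. Leaving out each replicate in turn gave 466 to 2246 higher genes (fewest without neuron replicate 4) and 709 to 2324 lower ones (fewest without neuron replicate 26), both highest without oligodendrocyte replicate 36. RLE and upper-quartile factors, a count filter of any count or 50 and sex as a covariate kept both counts within 1.5 times. A log2 fold change over 1 could not change the counts, since the smallest changes that passed were 1.25 and 1.14 in size.

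Without replicate 36, 4562 to 6238 genes were called under 4 added settings, against 4570. The interaction of sex and cell type gave 0 calls by edgeR, 19 by DESeq2, and 0 to 7131 when each replicate was left out, the highest without oligodendrocyte replicate 34, where replicate 36 alone stands for the female oligodendrocytes and is assumed to vary like the other groups. The presort comparison gave 0 by edgeR and 3 by DESeq2, and 0 to 0 without any replicate.

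Over 191 named genes and 23 settings, 23 of 4373 values changed sign, all of genes that did not pass with 8 libraries, and the cause was not tested. Slc17a7 was at 2.58 with voom, 0.88 with sex as a covariate, 3.70 in males, 0.0137 with all 12 sorted libraries, -0.92 to 3.10 when each replicate was left out (3.10 without oligodendrocyte replicate 36, the others below 0), and 0.77 with library totals. With 7 libraries it was at 2.64 (voom), 3.08 (DESeq2), 3.07 (RLE) and 3.34 (library totals). Celf2 was at -0.60 in females and at -0.10 to 1.82 when each replicate was left out, below 0 without oligodendrocyte replicate 10, 12 or 34. Kcnh1 was at -0.99 in females and at -0.0406 to 2.93 when each replicate was left out, below 0 without oligodendrocyte replicate 10 or 12. With library totals Ank3 was at 0.0413, Macf1 at 0.0733 (0.0938 with 7 libraries), Camk2a at 0.0993 (0.0805 in males) and Gabbr1, with 7 libraries, at 0.0049. Of the named genes that passed, 10 to 27 lost the call when 1 replicate other than oligodendrocyte replicate 36 was left out, and 0 did without that one. The fold change of 19 genes that passed moved by over 1.5-fold without oligodendrocyte replicate 36, as given beside their values. It did so for 39 genes without 1 of the other libraries, in the same direction each time, 14 without neuron replicate 2, 2 without 26, 3 without 4, and 3, 2 and 15 without oligodendrocyte replicates 10, 12 and 34. Junb moved most, from 3.78 to 7.40 without oligodendrocyte replicate 10.

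No paired analysis was possible because the groups share no replicate number. Depth limits what can be told from 0, up to 1.87 CPM in oligodendrocyte replicate 36 (3 counts). In simulated data the 8-library fit recovered 57% of genes changed 8-fold and 0% of those changed 2-fold. The shares were 98% and 9% with 7 libraries, where the biological coefficient of variation was 0.358 against 0.645. For the presort fit they were 97% and 20%, so a gene that did not pass is not shown to be equal. Simulated libraries all had the same spread for a gene, unlike replicate 36, and 100 genes changed at each fold. Recovery in the real libraries can therefore differ.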
